A study of Mus musculus with 4 samples.

Results

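Lin28a, Lin28b, Trim71 and L1td1 are RNA regulators of embryonic cells, and their signals were followed in P19, a mouse line of embryonal carcinoma cells that retinoic acid drives to differentiate. The members were taken by gene symbol from the array's probe annotation. Each of the 4 genes had 1 probe set, so they account for 4 of the 41345 probe sets and 4 of the 18310 genes compared, and all 4 were past the filter on low signals, which asks for log2 6 on the brightest array. The arrays covered 4 conditions with 1 array each. The first was a P19 clone with the stably integrated vectors pBI-EGFP-FLAG-mCtcfl and pTA-N, called the Ctcfl line, after 4 days in 10 µM retinoic acid, and the second was the same clone undifferentiated, with ethanol as vehicle. The third was wild-type P19 after 4 days in 10 µM retinoic acid, and the fourth was undifferentiated wild-type P19 with ethanol. The vectors form a Tet-Off system, in which doxycycline represses the Ctcfl transgene, and for the Ctcfl line the drug had been withdrawn for 2 days. For wild-type cells the labels disagree, giving ordinary medium in 1 field and 2 µg/ml doxycycline in another. The Ctcfl line is 1 clone, so the transgene, the clone's origin and any difference in doxycycline cannot be told apart.

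Lin28a and Lin28b each carry a cold shock domain and a pair of zinc knuckles and bind the precursors of the let-7 microRNAs. A precursor bound by Lin28a is uridylated by Tut4 or Tut7 and degraded by Dis3l2, so that mature let-7 stays low in pluripotent cells. Trim71, the mouse counterpart of the C. elegans heterochronic gene lin-41, belongs to the TRIM-NHL proteins, binds messenger RNAs and represses them, and is itself a let-7 target. L1td1 derives from the RNA-binding first open reading frame of a LINE-1 retrotransposon and, in human embryonic stem cells, associates with LIN28. In embryonic stem cells these genes are known as markers of the undifferentiated state, and let-7 and miR-125 microRNAs, which target Lin28 messages, accumulate as such cells differentiate.

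The microRNAs are shown because they link the members: the let-7 family shares 1 seed (bases 2 to 8, in capitals, which pair with the target), and the miR-125 family shares another. The sequences are mature 5p arms from RefSeq (GRCm38.p6), where 11 of the 15 family genes looked up had an arm with the let-7 seed and 3 had an arm with the miR-125 seed. No such arm was found there for Mirlet7a-2, which does not show that this gene lacks the let-7 seed.
let-7a-5p: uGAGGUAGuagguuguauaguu
let-7d-5p: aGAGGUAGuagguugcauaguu
let-7e-5p: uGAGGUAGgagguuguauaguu
let-7i-5p: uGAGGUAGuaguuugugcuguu
miR-125a-5p: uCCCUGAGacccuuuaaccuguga
miR-125b-5p: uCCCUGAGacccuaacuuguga

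The promoters of L1td1 and Lin28a are shown because these 2 members had the largest differences with retinoic acid. Each is the RefSeq window of 250 bases before to 50 after the gene start in GRCm38.p6. L1td1 lies on the plus strand at chr4:98726504-98726803, and Lin28a on the minus strand at chr4:134018767-134019066. Capitals mark a match to the Sp1 GC box GGGCGG on either strand.
L1td1: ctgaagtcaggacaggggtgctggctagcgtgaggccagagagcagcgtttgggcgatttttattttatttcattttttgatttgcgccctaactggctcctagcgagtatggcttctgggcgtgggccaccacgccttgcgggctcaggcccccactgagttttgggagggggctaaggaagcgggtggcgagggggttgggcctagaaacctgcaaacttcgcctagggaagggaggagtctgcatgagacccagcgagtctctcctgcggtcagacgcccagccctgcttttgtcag
Lin28a: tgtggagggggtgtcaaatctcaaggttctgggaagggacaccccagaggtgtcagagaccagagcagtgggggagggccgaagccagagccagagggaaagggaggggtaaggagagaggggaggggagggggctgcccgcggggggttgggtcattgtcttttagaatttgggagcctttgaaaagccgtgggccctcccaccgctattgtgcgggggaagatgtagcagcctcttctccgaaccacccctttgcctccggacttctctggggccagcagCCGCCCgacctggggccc

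A GC box stood once in the window of Lin28a, as CCGCCC, and once in that of Trim71, and in neither of the others; 35.7% of the 32851 RefSeq promoter windows held one. The POU octamer ATGCAAAT (1.74% of windows), the Sox site CATTGTT (3.78%), the nuclear receptor core AGGTCA (16.3%) and a CTCF core motif (8.61%), searched on both strands and none of them contained in another, were in none of the 4 windows, which says only that these letters are absent there. The share of G and C was 63.3% for Lin28a, 59.3% for Trim71, 58.7% for L1td1 and 39.0% for Lin28b, against a median of 52.7% over all windows.

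The values are log2 signals made by the authors with RMA, so a difference of 1 is a 2-fold change. With 1 array per condition, differences within a line or a state have no replicate check and no test. Effects averaged over both lines or both states were tested in limma, two-sided, in a model that adds a retinoic acid term and a line term, with Benjamini-Hochberg adjustment over 18310 genes and a threshold of 0.05. As a guide to technical error, log2 differences read by separate probe sets of 1 gene had an SD between 0.226 and 0.331 over the comparisons. It came from 874 genes with 2 or more probe sets past the filter. Such probe sets share their arrays, so this SD leaves out error from the array, the RNA and the culture. Array medians lay between 6.95 and 6.96, and with so few arrays every value is imprecise. Ctcfl itself was higher in the Ctcfl line by log2 2.49 (5.60-fold, adjusted p = 0.00645 in limma), in 2 of 2 states.

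L1td1 was the member that changed most with retinoic acid, and it fell in both lines. Its log2 signal was 7.81 with retinoic acid and 10.18 without it in the Ctcfl line, and 7.47 with retinoic acid and 9.04 without it in wild-type cells. Both arrays with retinoic acid were below both undifferentiated arrays. The differences were -2.37 in the Ctcfl line, or 5.17-fold lower, and -1.57 in wild-type cells, or 2.98-fold lower. Averaged over the lines L1td1 fell 3.92-fold (log2 -1.97 ± 0.21, SE, 95% interval -2.49 to -1.46, adjusted p = 0.00537 in limma). Only 25 of the 18310 genes had a lower difference than L1td1 in the Ctcfl line, and 154 had one in wild-type cells. In these bulk samples fewer L1td1-expressing cells and less L1td1 RNA per cell cannot be told apart.

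Lin28a, which blocks let-7 maturation, was lower with retinoic acid to an unequal extent in the lines. Its log2 signal was 10.15 with retinoic acid and 11.57 without it in the Ctcfl line, and 11.13 with retinoic acid and 11.61 without it in wild-type cells. The array of the Ctcfl line in retinoic acid stood apart as the lowest, and the undifferentiated arrays differed by 0.04. The retinoic acid difference was -1.42 in the Ctcfl line, or 2.68-fold lower, and -0.48 in wild-type cells, or 1.40-fold lower. The averaged effect was log2 -0.95 ± 0.24 (SE, 95% interval -1.52 to -0.39) and did not pass (adjusted p = 0.0682 in limma, unadjusted p = 0.0058). With quantile normalization of the 4 arrays it passed (adjusted p = 0.0461, log2 -0.94). In the Ctcfl line 118 genes had a lower difference than Lin28a, and in wild-type cells 1807 genes did.

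Trim71, the TRIM-NHL repressor, was slightly lower with retinoic acid in both lines. Its log2 signal was 9.92 with retinoic acid and 10.52 without it in the Ctcfl line, and 10.16 with retinoic acid and 10.57 without it in wild-type cells. As for L1td1 and Lin28a, both retinoic acid arrays were below both undifferentiated arrays, but the whole range over the 4 arrays was only 0.65. The differences were -0.60 in the Ctcfl line and -0.41 in wild-type cells. The averaged effect of log2 -0.50 ± 0.15 (SE, 95% interval -0.87 to -0.14) did not pass (adjusted p = 0.111 in limma).

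Lin28b, the paralog of Lin28a, had the opposite sign. Its log2 signal was 9.14 with retinoic acid and 9.03 without it in the Ctcfl line, and 9.30 with retinoic acid and 8.58 without it in wild-type cells. Both retinoic acid arrays were above both undifferentiated arrays. The undifferentiated wild-type array was the lowest, and the other 3 lay between 9.03 and 9.30. The difference was 0.72 in wild-type cells, above the technical SD of 0.303 for that comparison, and 0.11 in the Ctcfl line, within the SD of 0.331. The averaged effect of log2 0.41 ± 0.19 (SE, 95% interval -0.04 to 0.87) did not pass (adjusted p = 0.250 in limma).

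Over the members, 1 of 4 fell with retinoic acid and 0 rose, while over all genes 2.44% fell and 4.21% rose in limma; 3 of the 4 had an unadjusted p under 0.05, as did 23.5% of all genes. With retinoic acid L1td1 and Lin28a were lower by 2-fold or more in the Ctcfl line, as were 1.5% of genes, and L1td1 alone among the members in wild-type cells, as were 2.62% of genes. The signal plot of the members shows the steep lines of L1td1 and the single low array of Lin28a.

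**Figure D1:**
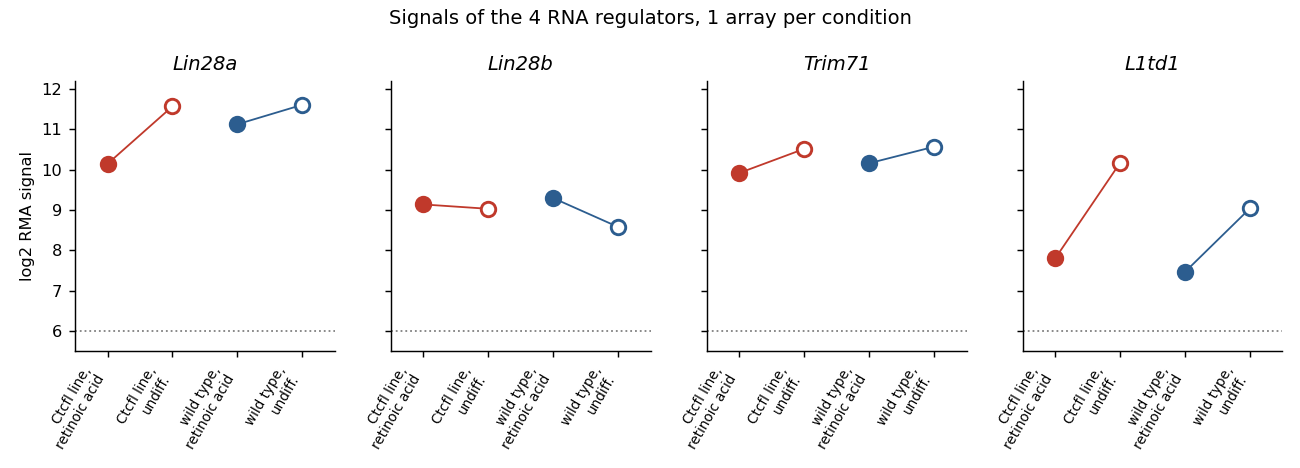
Log2 RMA signal of each member on the 4 arrays (filled circles: retinoic acid, open circles: undifferentiated, red: Ctcfl line, blue: wild type), with lines joining the arrays of a line and a dotted line at the filter's limit of log2 6. L1td1 lies at 7.81 and 7.47 with retinoic acid, against 10.18 and 9.04 without it, and Lin28a is lowest in the Ctcfl line with retinoic acid at 10.15.

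The difference of the retinoic acid differences, Ctcfl line minus wild type, was negative for all 4 members. It was -0.94 for Lin28a, -0.80 for L1td1, -0.61 for Lin28b and -0.19 for Trim71, against a median of -0.01 and an SD of 0.411 over all genes. None of the 4 reached 2-fold, a size that 2.65% of genes had, and single arrays give no test of it. The technical SD of this quantity was 0.321, which the value of Trim71 does not exceed. Of all genes, 0.989% had a lower value than Lin28a, 1.74% than L1td1, 4.23% than Lin28b and 28.7% than Trim71.

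**Figure D2:**
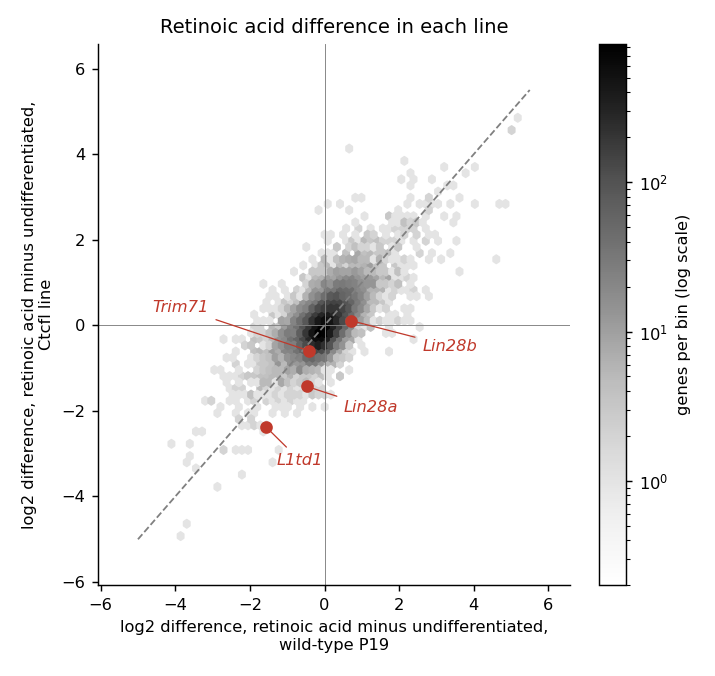
Log2 difference, retinoic acid minus undifferentiated, in the Ctcfl line (vertical axis) and in wild-type cells (horizontal axis) for 18310 genes (grey bins, darker with more genes on a log scale) and the 4 members (red). All 4 members lie below the dashed line of equal differences, with Lin28a at -1.42 in the Ctcfl line and -0.48 in wild-type cells.

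Between the lines, L1td1 differed in undifferentiated cells and Lin28a in retinoic acid. Without retinoic acid L1td1 was higher in the Ctcfl line by log2 1.13, or 2.19-fold (10.18 against 9.04 in wild type), and 0.726% of genes were higher by 2-fold or more. With retinoic acid its difference was 0.34, or 1.26-fold. Lin28a was lower in the Ctcfl line with retinoic acid by log2 -0.98, or 1.97-fold (10.15 against 11.13 in wild type), just short of the 2-fold lower that 0.399% of genes reached, and its difference without retinoic acid was -0.04. Only 76 of the 18310 genes were further below wild type than Lin28a in retinoic acid. Trim71 differed between the lines by -0.24 with retinoic acid and -0.05 without it. Lin28b differed by -0.16 with retinoic acid and 0.45 without it.

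Averaged over the states, 0 of the 4 members changed with the line in limma, where 0.0437% of all genes did, and 1 had an unadjusted p under 0.05, as did 9.81% of all genes. That member was L1td1, with log2 0.73 ± 0.21 (SE, 95% interval 0.22 to 1.25, adjusted p = 0.388, higher in 2 of 2 states). Lin28a had log2 -0.51 (95% interval -1.08 to 0.06, adjusted p = 0.560), Trim71 log2 -0.15 (-0.51 to 0.22, adjusted p = 0.788) and Lin28b log2 0.15 (-0.31 to 0.60, adjusted p = 0.839).

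The order of the 4 arrays thus differed among the members. L1td1 was highest in the undifferentiated Ctcfl line, then in undifferentiated wild type, then in the Ctcfl line and last in wild type with retinoic acid, and the last 2 differed by 0.34. Lin28a and Trim71 were highest in both undifferentiated conditions, which lay within 0.04 and 0.05 of each other, followed by wild type and then the Ctcfl line with retinoic acid. For Lin28b wild type with retinoic acid was highest and undifferentiated wild type lowest. After each gene was centred on its own mean, Lin28a and Trim71 had the most similar patterns of the 6 pairs, with a root mean squared difference of 0.345, and Lin28b and L1td1 the least similar, with 1.23.

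The 12 listed markers of pluripotent cells had median log2 signals of 8.35 and 7.96 with retinoic acid in the Ctcfl line and wild type, against 11.27 and 10.05 without it. All 12 were above log2 6 on every array, as were all measured markers of neurons, of endoderm and of primitive streak and mesoderm. That limit thus does not single them out. Among the pluripotency markers Zfp42, at 6.12 to 6.46, was below the array medians, and Esrrb, at 6.99 to 7.18, was close to them. With retinoic acid 8 of the 12 fell in limma and 0 rose. Pou5f1, a core pluripotency factor, had log2 signals of 8.14 and 8.10 with retinoic acid in the Ctcfl line and wild type, against 10.03 and 9.37 without it. Its effect was -1.58 (adjusted p = 0.00743 in limma), and that of Nanog, another core factor, was -1.97 (adjusted p = 0.00513). Utf1, a chromatin protein, and Tdgf1, the Nodal coreceptor, had effects of -3.41 and -4.13 (adjusted p = 0.000529 and 0.000571). Sox2, shared with neural progenitors, had an effect of -0.32 and did not pass (adjusted p = 0.270). Averaged over the lines, the effect of L1td1 was thus close in size to that of Nanog. The separate lines differed: Nanog had -1.58 in the Ctcfl line and -2.36 in wild type, and L1td1 had -2.37 and -1.57. The summed linear signal of the 12 markers was 10574 and 8041 with retinoic acid in the Ctcfl line and wild type, against 25868.5 and 21072 without it. For the 7 neural progenitor markers with a value, of which 4 rose, it was 3168 and 2710 with retinoic acid, against 1470 and 1335 without it. The endoderm markers summed to 2269 and 4165 with retinoic acid, against 1288 and 1376 without it, and the trophoblast markers to 3895 and 4478, against 2399 and 2603. The mesenchyme markers summed to 2985 and 4076 with retinoic acid, against 1959 and 2576 without it. The neuron markers summed to 2089 and 3239 with retinoic acid, against 3555 and 5399.5 without it. The primitive streak and mesoderm markers summed to 1555 and 1940, against 1884 and 1123. In both lines the sums were thus higher with retinoic acid for neural progenitor, endoderm, trophoblast and mesenchyme markers. They were lower for pluripotent and neuron markers. The primitive streak and mesoderm sum was lower in the Ctcfl line and higher in wild type. Such linear sums weigh bright genes most. The median retinoic acid effect was log2 -0.38 for trophoblast markers, 0.33 for endoderm and 0.19 for mesenchyme. In the Ctcfl line alone the endoderm median was 0.06, with 4 of 8 above 0. Markers of neurons rose in 1 and fell in 3 of 8, those of endoderm rose in 1 of 8, those of mesoderm rose in 1 and fell in 1 of 7, those of trophoblast rose in 2 and fell in 1 of 7, and those of mesenchyme rose in 3 and fell in 1 of 8. The part of such shifts in the signals of the members was not tested.

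The genes of the let-7 and miR-125 microRNAs gave low signals. Of 15 listed, 14 had a value, and 9 of these never reached log2 6 on any array. Of the 5 past the filter 1 rose with retinoic acid and 0 fell, where 4.21% and 2.44% of all genes did. In limma 2 of these 5 had an unadjusted p under 0.05, as did 23.5% of all genes. The median effect was log2 0.40 against -0.05 over all genes. Mirlet7d was the gene that rose (1.66-fold, log2 0.73, adjusted p = 0.0384 in limma), with signals of 6.75 and 6.43 with retinoic acid in the Ctcfl line and wild type, against 6.07 and 5.65 without it. The last value is below log2 6, so the fold is not exact, and the gene was no longer tested with a filter at log2 7. Mirlet7e had 7.67 and 6.47 in the Ctcfl line with and without retinoic acid, and likewise 6.31 and 6.68 in wild type. Its highest value was on the array on which Lin28a was lowest, as were those of Mirlet7d and Mirlet7a-2 (6.75 and 6.30). Mirlet7a-1 and Mirlet7i, the others past the filter, had their lowest values there, at 6.69 and 6.45. The effect of Mirlet7e, log2 0.42, did not pass (adjusted p = 0.497 in limma). Its other probe set, at 5.47 on that array and 4.89 to 4.90 on the rest, was never at log2 6. Mirlet7a-1 and Mirlet7a-2 had effects of -0.31 and 0.40 and did not pass. These probe sets are annotated to microRNA genes, and whether they read the primary transcript, the precursor or the mature form is not given in the sources used here.

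Of the genes that process let-7 and other microRNAs, 17 of 19 listed had a value and all 17 were past the filter. Here 1 rose with retinoic acid and 0 fell, where 4.21% and 2.44% of all genes did. In limma 6 of the 17 had an unadjusted p under 0.05, as did 23.5% of all genes. An effect above 0 was seen in 14 of 17, and the median was log2 0.17 against -0.05 over all genes. The gene that rose was Ddx5, an RNA helicase that works with Drosha, by 1.66-fold (adjusted p = 0.0382 in limma). Msi1, an RNA-binding protein of neural progenitors that acts with Lin28 in let-7 processing, had an effect of 0.66 (adjusted p = 0.0595). The Argonaute genes Ago4 and Ago1 had effects of 0.62 and 0.47 and did not pass.

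Of 28 listed let-7 target genes 23 had a value. With retinoic acid 1 rose and 1 fell, where 4.21% and 2.44% of all genes did, and 21 were not called. An unadjusted p under 0.05 in limma was seen in 11 of the 23, and in 23.5% of all genes. The median was log2 0.19 against -0.05 over all genes, with 17 of 23 above 0. Ccnd2, a G1 cyclin, had log2 signals of 11.48 and 12.16 with retinoic acid in the Ctcfl line and wild type, against 10.33 and 10.03 without it, and rose 3.11-fold (adjusted p = 0.0139 in limma). Mycn, a Myc family transcription factor, had 7.53 and 8.48 with retinoic acid, against 8.99 and 9.16 without it, and fell 2.10-fold (adjusted p = 0.0364). Hmga2, an architectural chromatin protein and a classical let-7 target, had 10.85 and 11.38 with retinoic acid, against 10.32 and 9.85 without it. Its effect of log2 1.02 did not pass (adjusted p = 0.0622). Ccnd1, another G1 cyclin, had an effect of -0.81 (adjusted p = 0.186), made up of -1.52 in the Ctcfl line and -0.10 in wild type. The targets that passed thus moved in opposite directions.

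**Figure D3:**
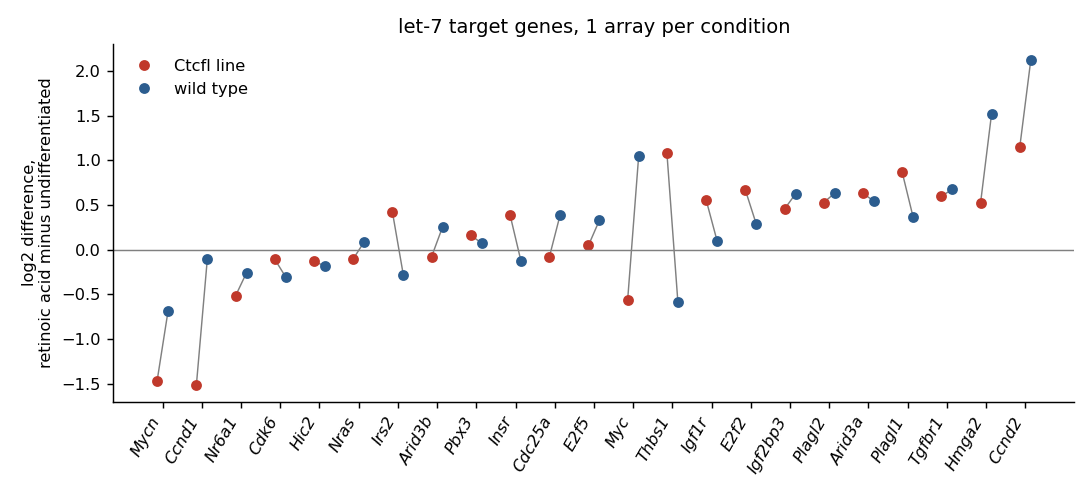
Log2 difference, retinoic acid minus undifferentiated, of 23 let-7 target genes in the Ctcfl line (red) and wild type (blue), with 1 array per condition and genes ordered by their mean over the lines. Mycn lies at the low end with -1.47 and -0.68 and Ccnd2 at the high end with 1.15 and 2.12 in the Ctcfl line and wild type.

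Of the 4 messages that Trim71 is known to repress in embryonic stem cells, 1 fell with retinoic acid and 0 rose. Over all genes 2.44% fell and 4.21% rose. In limma 2 of the 4 had an unadjusted p under 0.05, as did 23.5% of all genes. Cdkn1a, the cell cycle inhibitor p21, had log2 signals of 8.27 and 7.43 with retinoic acid in the Ctcfl line and wild type, against 9.49 and 8.32 without it, and fell 2.08-fold (adjusted p = 0.0159 in limma). It was higher in the Ctcfl line by 0.83 with retinoic acid and by 1.17 without it, and did not pass as a line effect (adjusted p = 0.195). The retinoblastoma relatives Rbl1 and Rbl2 had effects of 0.29 and 0.41, and the early response factor Egr1 one of -0.51; none of the 3 passed. Of Trim71's TRIM-NHL relatives Trim2, Trim3 and Trim32, 0 of 3 changed with retinoic acid in limma and 1 had an unadjusted p under 0.05; Trim3 had the largest effect, 0.51 (adjusted p = 0.104). Of the other cold shock domain genes, 5 of 6 listed had a value and 0 changed, with 1 at an unadjusted p under 0.05, and effects between -0.46 for Ybx3 and 0.11 for Carhsp1 among those named. Over the 6 lists together 0 of 57 genes past the filter changed with the Ctcfl line in limma. An unadjusted p under 0.05 was seen in 9, of which 6 were let-7 target genes, against 9.81% of all genes.

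**Figure D4:**
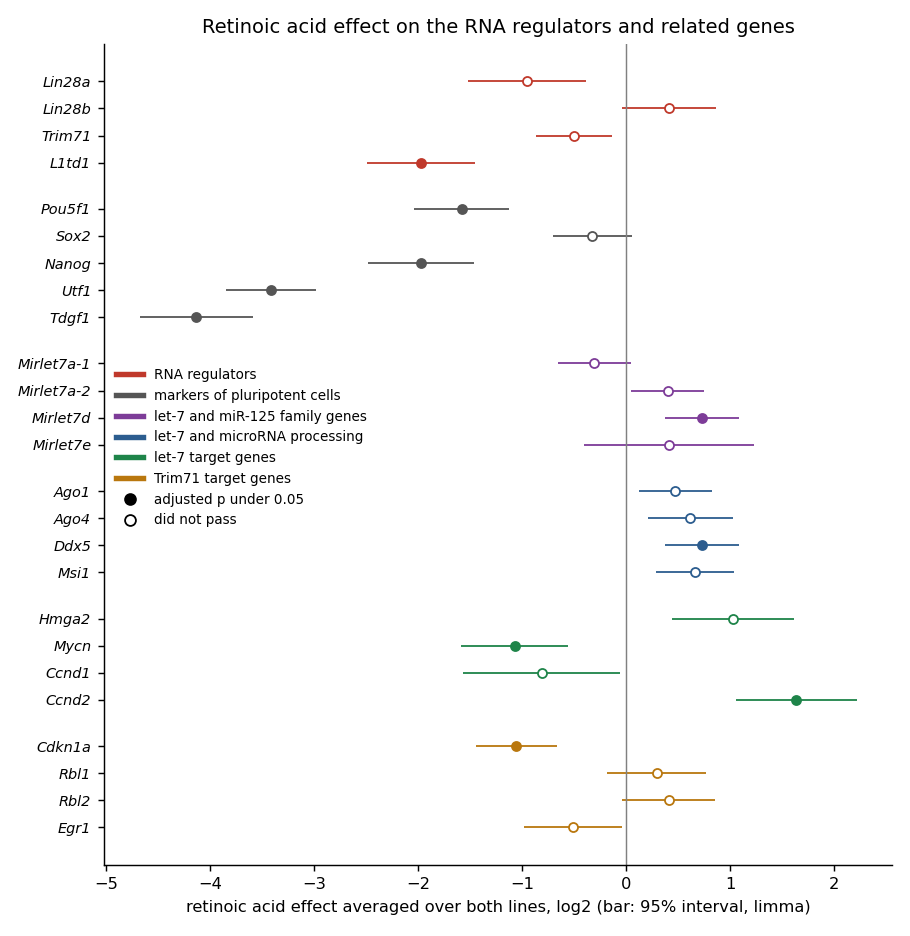
Retinoic acid effect averaged over both lines on the log2 scale, with 95% intervals from limma, for the 4 members and for genes of the related lists (filled points: adjusted p under 0.05, open points: did not pass). L1td1 at -1.97 lies beside Nanog at -1.97, while Lin28b at 0.41 lies on the other side of 0 from Lin28a at -0.95.

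The genes whose pattern over the 4 arrays was most like each member were ranked by the root mean squared difference of centred log2 signals. For L1td1 they were Sall3, a spalt zinc finger gene (0.106), Map7d3, a microtubule-associated protein gene (0.120), and Zfp296, a zinc finger gene of pluripotent cells (0.189). Each fell more than 4-fold with retinoic acid, by 4.33-fold, 4.21-fold and 4.11-fold (adjusted p = 0.00228, 0.00191 and 0.00689 in limma). For Lin28a the nearest gene was Mycn (0.0756), followed by the small nucleolar RNA gene Snora16a (0.127) and Adam12, a metalloprotease gene (0.136). For Lin28b they were Ror2, a Wnt receptor, Ssr3, a subunit of the translocon-associated protein complex, and Pyurf (0.0155 to 0.0223), and for Trim71 they were Mrpl35, a mitochondrial ribosomal protein gene, Zfp874a and Pex5l (0.0098 to 0.0137). The last 2 members varied by only 0.72 and 0.65 over the arrays, against 2.71 for L1td1 and 1.46 for Lin28a. Likeness over 4 arrays is a description of these arrays.

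**Figure D5:**
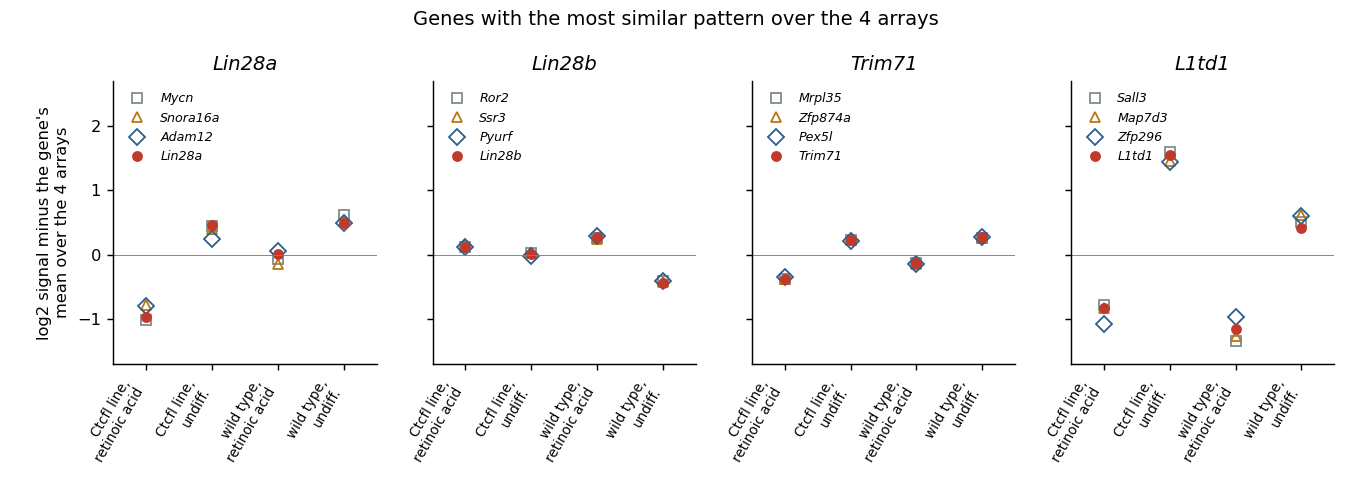
Log2 signal minus the gene's own mean over the 4 arrays for each member (red circles) and the 3 genes with the smallest root mean squared difference from it (open symbols). Sall3, Map7d3 and Zfp296 follow L1td1, with high undifferentiated and low retinoic acid values, and Mycn follows Lin28a with its lowest value in the Ctcfl line with retinoic acid.

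The nearest protein-coding genes with a value on either side of the members mostly did not pass. Genes without a value were skipped. On chromosome 10 Bves, a Popeye domain gene beside Lin28b, had log2 signals of 9.14 and 9.04 with retinoic acid in the Ctcfl line and wild type, against 7.71 and 7.21 without it. It rose 3.09-fold (adjusted p = 0.00434 in limma), whereas Hace1, a ubiquitin ligase gene on the other side of Lin28b, had an effect of 0.29 (adjusted p = 0.288). On chromosome 4 the genes beside L1td1, Patj and Kank4, had effects of 0.51 and 0.01 (adjusted p = 0.123 and 0.967), and those beside Lin28a, Dhdds and Crybg2, had 0.35 and -0.28 (adjusted p = 0.269 and 0.308). On chromosome 9 Ccr4 and Cnot10, beside Trim71, had 0.38 and 0.13 (adjusted p = 0.235 and 0.671).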

How the data were processed

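Total RNA of P19 cells was hybridised to Affymetrix arrays, 1 per condition. The deposited log2 signals were made by the authors with RMA in Affymetrix Expression Console, per the labels; Transcriptome Analysis Console is also named in the submitters' processing notes. Versions and the genome build are not given in the sources used here. The values were used without further normalization. RMA makes array distributions alike, so values are relative within an array.

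Each gene was read from the brightest, by mean, of the probe sets annotated to it alone (23521 probe sets, 22180 genes), and genes whose highest signal was below log2 6 were left out, which left 18310. Olfactory receptor genes, a guide to background, had array medians between 4.68 and 4.78. Of these, 242 of 1105 (21.9%) were past the filter, so passing it does not by itself show expression. Groups came from sample titles. limma 3.58.1 in R 4.3.3 (lmFit, eBayes) was fitted to all 18310 genes with a retinoic acid term plus a line term; this leaves 1 residual degree of freedom per gene, takes the interaction as error, and had a prior of 5.49 degrees of freedom. Nothing names separate cultures, so p-values do not measure the spread between cultures. They set an effect against the interaction on these arrays, moderated by the prior. The fit was checked on simulated data with independent noise and additive retinoic acid changes. That check did not cover responses that differ between the lines.

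Genes were named by a fixed rule: the members, 5 pluripotency markers, Ctcfl, up to 4 genes with the largest retinoic acid effect from each of 6 lists, chromosomal neighbours, and the 3 genes most like each member. Mirlet7i and some cell type markers were named outside this rule, beside a pattern or a sum. The members and lists were chosen with earlier results of these data known. Of 75 genes on the 6 lists, 66 had a value; the others were not analysed here. Alternatives were quantile normalization, no filter, a stricter filter at log2 7, the mean of probe sets, a variance prior that follows mean expression and a 3-fold limit. Gene neighbours and sequences came from RefSeq tables on GRCm38.p6.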

Additional observations from a re-analysis of the deposited data

Results flagged for a closer look

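Lin28b differed between the lines in opposite directions in the 2 states. It was higher in the Ctcfl line by log2 0.45 without retinoic acid, and its difference with retinoic acid was -0.16. The difference between the states was not tested, since each value comes from single arrays. The technical SD was 0.262 without retinoic acid and 0.226 with it, so the second value is within that spread.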

How the results depend on the processing

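The members were also tested under 5 alternatives. These were quantile normalization, no filter, a stricter filter at log2 7, the mean of probe sets, or letting the variance prior follow mean expression. Only quantile normalization could alter a member's averaged effects, and all of them kept their direction under it. The other alternatives left these effects the same, since each member has 1 probe set and passes both filters, and the prior acts on the variance. They could change only the standard errors and p-values. L1td1 fell with retinoic acid under all 5, with adjusted p between 0.00191 and 0.00789. With quantile normalization 2 members were called with retinoic acid in place of 1, since Lin28a passed (adjusted p = 0.0461); over the 5 its adjusted p lay between 0.0461 and 0.0864. For Trim71 it lay between 0.0870 and 0.132 and for Lin28b between 0.241 and 0.321. Of the members 0 were called with the line under any of the 5, with the lowest adjusted p at 0.339, for L1td1. Over all genes, line calls numbered 8, but 23 with quantile normalization and 15 with the prior that follows mean expression. Of the single-array differences of the members 4 were at least 2-fold, and 1, L1td1 with retinoic acid in the Ctcfl line, with a 3-fold limit; with quantile normalization the difference of Lin28a between the lines in retinoic acid was -1.01, past 2-fold. Of the let-7 and miR-125 genes 2 rose without the filter and 0 with the filter at log2 7, since fewer genes were then tested. Of the let-7 target genes and the processing genes, 2 each rose with quantile normalization, in place of 1 each; the cause was not tested.

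No paired analysis was possible because the labels carry no replicate numbers for a replicate block; the additive model itself compares arrays with and without retinoic acid within each line, with 1 residual degree of freedom. Leaving out an array would leave no residual degree of freedom, so it was not done. No member has a second probe set to set against its first.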
